A study of Mus musculus with 150 samples.

Results

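Glo1 and Alad are enzyme genes known to vary in copy number among inbred mouse strains, and their RNA was described here by strain within each of 34 tissues. The array carried 2 probe sets annotated to Glo1, 93268_at and 93269_at, and 1 annotated to Alad, 101044_at, so the members were 2 of 8251 genes and 3 of 12422 probe sets other than controls. All 3 probe sets were members whatever their values, and all 3 passed the filter on low signal. Biotin-labelled RNA of wild-type inbred mice had been hybridized to 150 one-colour arrays, 54 of strain 129, 57 of B6 (also written BL6), 19 of DBA, 10 of AJ and 10 of C3H. Of these, 100 covered 24 neural tissues of 129, B6 and DBA, and 50 covered 10 body tissues with 1 array of each of the 5 strains. No group carried a treatment or an engineered allele. The labels do not name the substrain or sex, and of age the series gives only that the mice were adult. Titles carry number codes, some joining several numbers, which read as animals or pools of animals but are not explained in the labels. Copy number itself was not measured. In bulk tissue, fewer cells of a type and less RNA per cell cannot be told apart.

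Glo1 encodes glyoxalase 1, the first enzyme in the removal of the reactive sugar by-product methylglyoxal, which depends on glutathione. Hagh encodes the second glyoxalase, which releases the product and gives glutathione back. Alad encodes delta-aminolevulinate dehydratase, the second enzyme of heme synthesis, which acts after Alas1 or Alas2 and is known for its sensitivity to lead. Heme is made in all tissues and in greatest amount in red cell precursors and liver.

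The promoter windows of both genes are shown as a description only. The sequences are RefSeq's for mouse build GRCm38.p6 and run from 250 bases before to 50 bases after the annotated start, 5′ to 3′ on the minus strand. They are the reference sequence, not that of the strains measured. Capitals mark matches, on either strand, to the GC box GGGCGG and the CCAAT box CCAAT.
Glo1, chr17:30612610-30612909: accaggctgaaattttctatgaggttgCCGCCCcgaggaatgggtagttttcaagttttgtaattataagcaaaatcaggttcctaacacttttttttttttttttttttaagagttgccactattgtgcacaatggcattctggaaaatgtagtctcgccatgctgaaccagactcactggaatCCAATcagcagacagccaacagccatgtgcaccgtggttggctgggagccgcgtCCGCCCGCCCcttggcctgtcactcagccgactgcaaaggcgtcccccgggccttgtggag
Alad, chr4:62520014-62520313: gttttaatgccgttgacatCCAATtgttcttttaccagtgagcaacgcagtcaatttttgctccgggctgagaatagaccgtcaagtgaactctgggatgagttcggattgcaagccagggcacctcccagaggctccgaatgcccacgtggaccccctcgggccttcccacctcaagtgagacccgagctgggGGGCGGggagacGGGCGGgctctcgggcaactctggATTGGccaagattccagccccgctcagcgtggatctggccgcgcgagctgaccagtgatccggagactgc

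Both windows held at least 1 GC box and 1 CCAAT box, and of all 32851 windows of this length 35.7% held the first and 37.4% the second. The last pair of GC boxes in the Glo1 window overlap each other. Base composition differed, with 49.7% G or C in the Glo1 window and 60% in the Alad window. A further Alad window, whose start lies 154 bases away and which overlaps the one shown, had 71.3%. The E-box CACGTG stood in both Alad windows and not in the Glo1 window, against 7.15% of all windows. The antioxidant response core TGANNNNGC stood in the Glo1 window alone, against 41.3%. The TATA box TATAAA, the CACC box CCACCC and the GATA forms AGATAA and TGATAA stood in none of the 3 windows, against 13.6%, 31.5%, 11.2% and 9.05% of all windows. Every motif was searched on both strands, and a match is a description of these letters only.

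Before the strains were compared, the arrays were checked against their labels. The 75th percentile of intensity ran from 167 to 185 over all arrays, the median from 38.5 to 68.2, and the 3′ to 5′ ratio of Gapdh signal from 0.748 to 1.41. The columns labelled 129 hippocampus replicate 1 and DBA perirhinal cortex replicate 2 were identical and were left out. They held 338 and 830.0 for the Glo1 probe sets 93268_at and 93269_at, and 419 for Alad. Of 45 markers of 18 tissues, 41 were highest in their own tissue among all 34, and Hoxa7, Hoxb8, Rag1 and Adipoq were not. Each array was also correlated, over strain-variable probe sets without the members, with strain profiles taken from the other tissues. Only strains with arrays in the same tissue were offered, which were all 5 strains in body tissue but 129 and B6 alone in the neural check. In the forebrain check they were those of 129, B6 and DBA present in the tissue. A mix-up with a strain not offered could not show. All 80 arrays of 129 and B6 neural tissue and all 23 forebrain arrays fitted best with their own label, but only 44 of 50 body arrays did. The arrays labelled C3H liver and C3H spleen fitted DBA best, those labelled DBA liver and DBA spleen fitted C3H best, and that labelled C3H brown adipose tissue fitted DBA narrowly, with r of 0.416 against 0.356. The array labelled C3H white adipose tissue had r of 0.466 with B6 and -0.14 with C3H, and its r with the B6 array of that tissue over all probe sets, 0.984, was the highest of the 10 pairs. Values for C3H and DBA are therefore also given without these 6 arrays, for the member differences from B6 and between strains.

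Glo1 RNA was about double in 129 relative to B6 throughout the nervous system. On 93269_at the 47 B6 arrays had intensities from 305 in pituitary to 1108 in choroid plexus, with a median of 527, and the 43 arrays of 129 ran from 668 in pituitary to 2146 in choroid plexus, with a median of 1017. Within a tissue the strains did not overlap: in striatum B6 had 371 and 395 and 129 had 892 and 994. In cerebellum B6 had 567 and 473 and 129 had 1075 and 1170. The closest tissue by ratio was choroid plexus, with 981 and 1108 in B6 and 1705 and 2146 in 129. Over the 20 neural tissues with both strains, 129 lay above B6 on every array in 20 of 20 tissues on each of the 3 member probe sets, against 0.235% of all probe sets tested.

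The fitted difference on 93269_at was 1.07 ± 0.03 on the log2 scale (± is the SE throughout), or 2.09-fold (limma adjusted p = 2.37e-38, 80 arrays). A strain difference was called at an adjusted p under 0.05 and at least 1.5-fold, and 0.692% of probe sets were called higher in 129 in this comparison. The second Glo1 probe set, 93268_at, differed by 0.91 ± 0.04 (limma adjusted p = 5.67e-30). The ratio of mean intensities on 93269_at ran from 1.84 in choroid plexus to 2.46 in striatum, and on 93268_at from 1.34 in cortex to 2.51 in midbrain with thalamus. Variation of the difference among 19 tissues did not pass the test on 93269_at (limma adjusted p = 0.682) or on 93268_at (0.0576), where 20.5% of all probe sets passed. On 93268_at, where F was 2.28, it did pass under quantile normalization, at adjusted p = 0.0237. The test needs replicate arrays of both strains in a tissue, so leaving out an array often removed its whole tissue. The variation also passed with CA3 (F of 2.69), dentate gyrus (2.40), inferior colliculi (2.48) or CA1 (2.645) removed in this way. Without B6 CA1 replicate 3, which kept CA1 in the test, F was 2.72 and it passed.

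**Figure D1:**
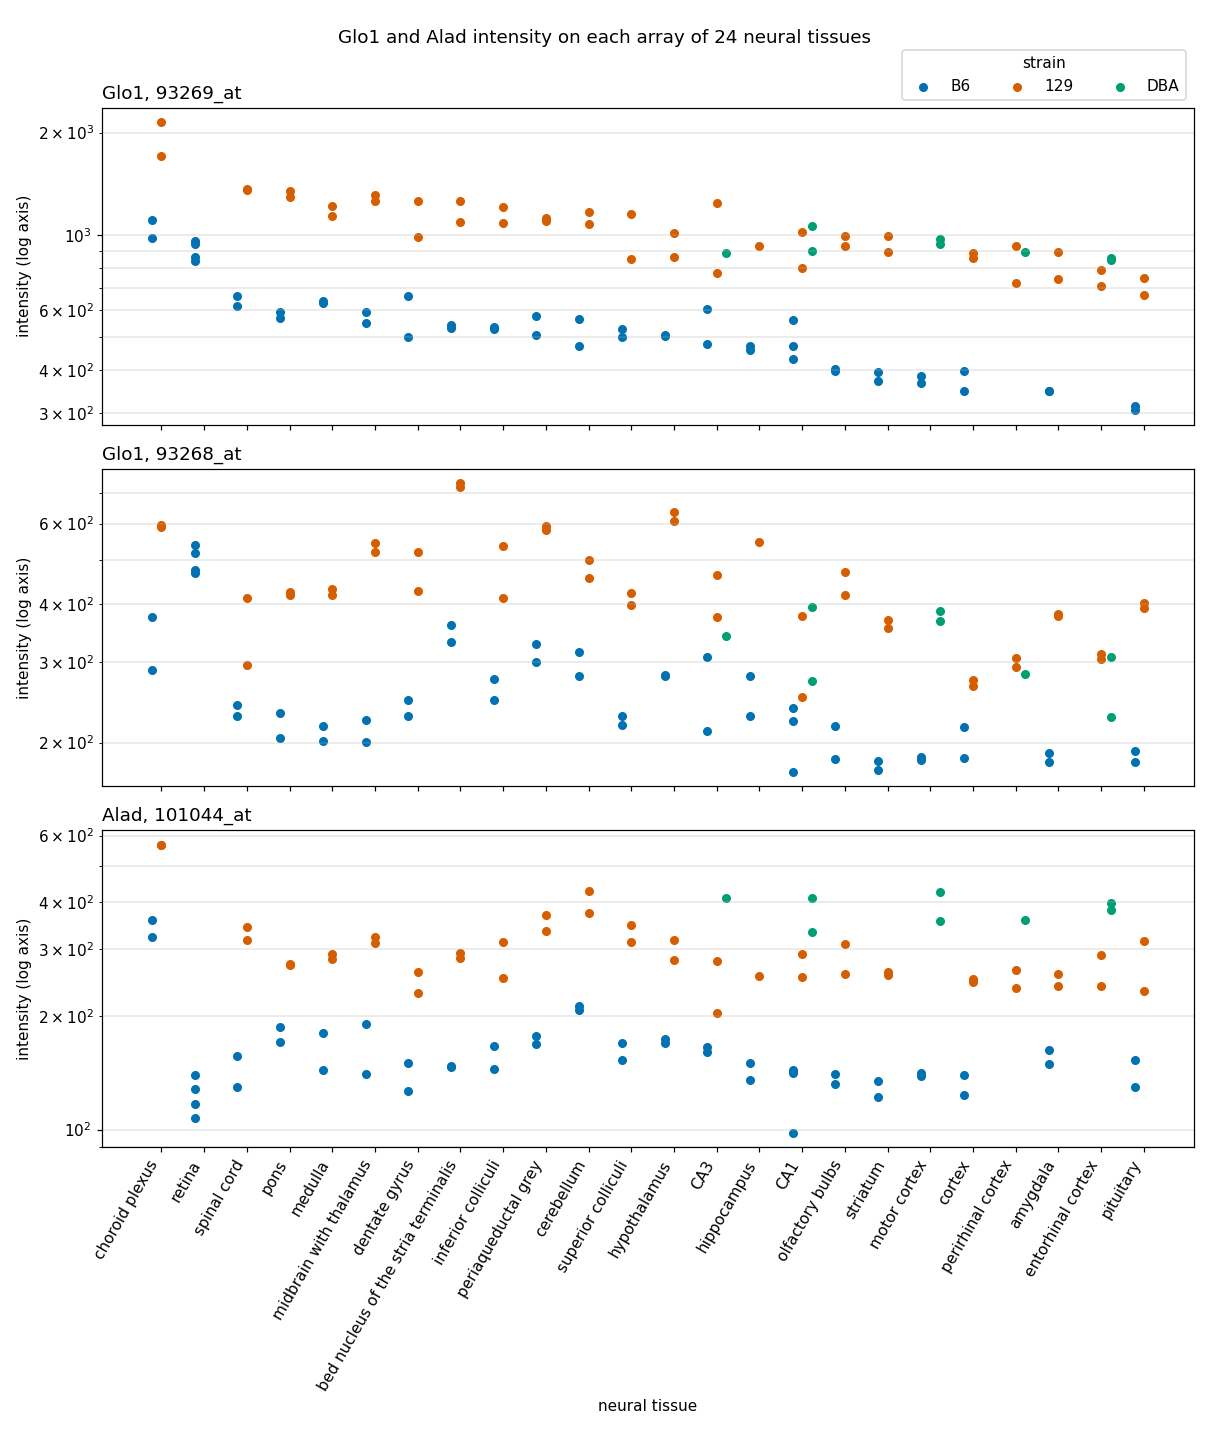
Intensity (log axis) of the 3 probe sets on each of 98 arrays, by neural tissue and strain, with tissues ordered by the strain-adjusted level of Glo1 on 93269_at. In every tissue with both strains the 129 points lie above the B6 points, and retina has B6 arrays only.

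Alad followed the same order in neural tissue. The 47 B6 arrays ran from 98.1 in CA1 to 359 in choroid plexus, with a median of 148, and the 43 arrays of 129 from 204 in CA3 to 568 in choroid plexus, with a median of 282. In spinal cord, where the ratio was highest at 2.31, B6 had 157 and 129.7 and 129 had 345 and 318. In CA3, where it was lowest at 1.48, B6 had 160.5 and 166 and 129 had 279 and 204. The fitted difference was 0.90 ± 0.04, or 1.87-fold (limma adjusted p = 9.72e-33), and its variation among tissues did not pass (adjusted p = 0.435).

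**Figure D2:**
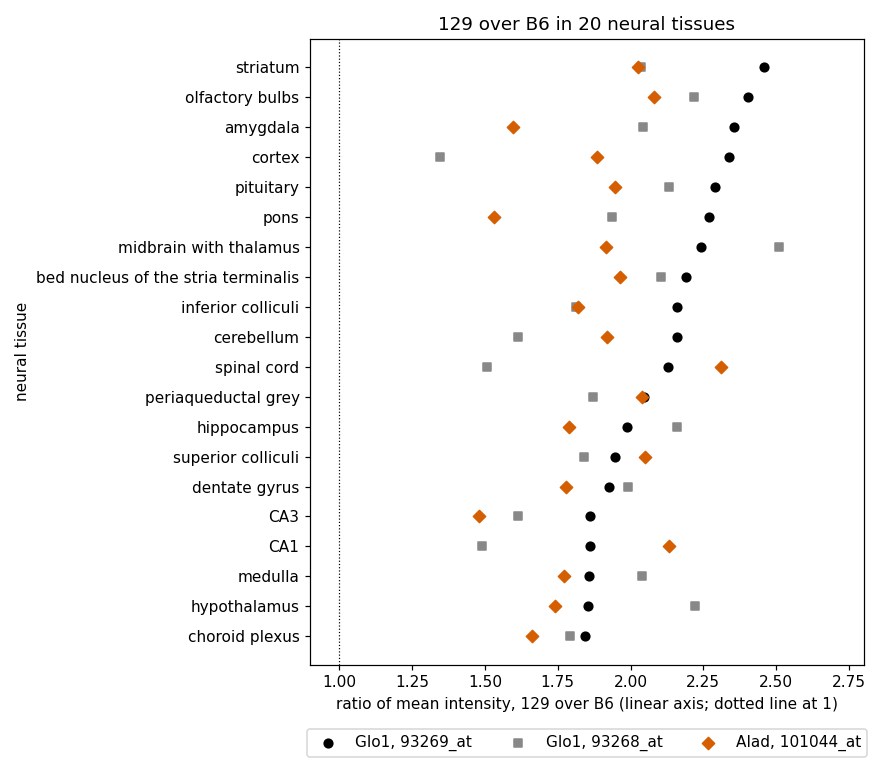
Ratio of mean intensity, 129 over B6, in each of 20 neural tissues (linear axis), for the Glo1 probe sets 93269_at and 93268_at and for Alad. All points lie right of the dotted line at 1, between 1.34 and 2.51.

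Markers of brain cell types and of blood were read beside these values. In neural tissue limma called 0.692% of all probe sets higher in 129 than in B6 and 1.74% lower. None of 4 neuronal, 5 astrocyte and 5 oligodendrocyte genes was called there. Of these, 2, 1 and 4 had an unadjusted p under 0.05, and the median differences were 0.16, -0.09 and -0.30. The share of all probe sets at that unadjusted cutoff is not given here. Of 6 red cell genes tested, 1 rose in 129, the beta-globin gene Hbb-b2, by 1.55 ± 0.11 (limma adjusted p = 1.35e-19). All 6 differed by 0.02 to 1.55, with a median of 0.34, and 4 had an unadjusted p under 0.05. The summed intensity of the 9 red cell genes on the array had a median of 4396 in 129, with a range of 2412 to 14921, and of 3130 in B6, with a range of 1020 to 10091. Without the globin genes the medians were 715 and 748. These medians cover all 43 neural arrays of 129 and all 47 of B6, so the tissues differ. Of these strains, retina and motor cortex had B6 alone, and entorhinal and perirhinal cortex 129 alone. The part of blood in the Alad difference was not tested.

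The 5 forebrain tissues with DBA arrays added DBA to the comparison. Motor cortex had no 129 array, and entorhinal and perirhinal cortex had no B6 array. DBA and B6 arrays were thus found together in CA1, CA3 and motor cortex alone. In motor cortex Glo1 on 93269_at had 385 and 367 in B6 and 942 and 971 in DBA. In entorhinal cortex it had 789 and 706 in 129 and 855 and 846 in DBA, and in CA1 the DBA arrays at 1064 and 897 overlapped the 129 arrays at 1017 and 799.5. DBA exceeded B6 by 1.07 ± 0.11, or 2.10-fold (limma adjusted p = 6.85e-07, 23 arrays), and differed from 129 by 0.14 ± 0.11 (adjusted p = 0.57). On 93268_at DBA exceeded B6 by 0.69 ± 0.13 (adjusted p = 0.00159) and differed from 129 by -0.05 ± 0.12 (adjusted p = 0.876). DBA was called higher than B6 for 1.02% of probe sets, and DBA and 129 differed in either direction for 2.13%.

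Alad stood higher still in DBA forebrain. Motor cortex had 141 and 139 in B6 and 426 and 357 in DBA. Entorhinal cortex had 289 and 240.2 in 129 and 399 and 381 in DBA, and the single perirhinal DBA array had 358 against 238 and 264 in 129. The 8 DBA arrays, at 333 to 426, lay above every other array of the same tissue in all 5 tissues, as for 0.315% of probe sets tested. Those other arrays were of B6 alone in motor cortex and of 129 alone in entorhinal and perirhinal cortex. DBA exceeded B6 by 1.46 ± 0.11, or 2.75-fold (limma adjusted p = 5.54e-09). Over 129 it was higher by 0.58 ± 0.11 (adjusted p = 0.00134), which at 1.496-fold fell just short of the fold threshold. The fold passed under quantile normalization (0.60), with the identical columns kept (0.605), and with a replicate block of arrays that share a title code (0.62, adjusted p = 0.00533). With 1 array left out at a time it ran from 0.51 to 0.63 and passed without any of 10 arrays. The 5 oligodendrocyte genes differed between DBA and B6 by -1.18 to -0.56, with a median of -0.81 against 0.01 for all probe sets, and all 5 had an unadjusted p under 0.05. Of these 2 fell at the threshold, where 1.69% of probe sets were called lower, Mag by -1.18 ± 0.33 (adjusted p = 0.0361) and Mal by -0.81 ± 0.23 (0.0361), and of 4 red cell genes tested 1 fell, Hba-a1 by -0.84 ± 0.21 (0.0212). Each of the 3 calls was lost when any of several single arrays was left out, and without DBA CA1 replicate 1 Mag, Mal and Hba-a1 differed by -1.18, -0.85 and -0.79 (adjusted p = 0.0713, 0.0565 and 0.0554). With the replicate block Mag differed by -1.10 (adjusted p = 0.105) and Mal by -0.76 (0.0999), neither called. With all arrays in 1 fit Mal differed by -0.33 and Hba-a1 by -0.40, neither called (adjusted p = 0.24 and 0.0651). Against 129 none of the 5 oligodendrocyte genes was called by limma, with 3 at an unadjusted p under 0.05 and a median of -0.64. Against 129, Hbb-b2 fell in DBA by -1.28 ± 0.21 and Hba-a1 by -1.04 ± 0.20, where 0.974% of probe sets were called lower. None of 4 neuronal and 5 astrocyte genes was called against B6 or against 129, with 1 of each list at an unadjusted p under 0.05 in both. Against B6 the neuronal genes differed by -0.73 to 0.15 and the astrocyte genes by -0.05 to 0.54. Against 129 they differed by -0.70 to 0.0035 and by -0.07 to 0.53. The smallest limma adjusted p of the astrocyte genes was 0.0136 and 0.013, under 1.5-fold. The part of these cells in the Alad differences was not tested.

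In the 10 body tissues B6 was again the lowest strain and AJ was the highest for Glo1. On 93269_at the B6 arrays ran from 80.9 in testes to 865 in liver, with a median of 299 over tissues. The medians were 700.2 in 129, 768 in DBA, 895 in C3H and 1338 in AJ. B6 was the lowest of the 5 strains in 10 of 10 tissues on both Glo1 probe sets and in 9 of 10 for Alad, where 0.168% of probe sets had B6 lowest in at least 9. AJ was the highest in 10 tissues on 93269_at, in 9 on 93268_at and in 4 for Alad, and 0.0673% of probe sets had AJ highest in at least 9.

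Liver and muscle show the size of the Glo1 steps. In liver 93269_at had 865 in B6, 2727 in 129, 2916 on the array labelled DBA, 4113 on that labelled C3H and 4525 in AJ. In muscle it had 394 in B6, 1180.3 in DBA, 1278 in C3H, 1399 in 129 and 1982 in AJ. Thymus had 241 in B6, 545 in DBA, 645 in 129, 832 in C3H and 1489 in AJ, where the ratio of AJ to B6 was highest at 6.18. AJ was the highest in each of these tissues, in liver by less than the residual SD over the array labelled C3H, and the order of 129, DBA and C3H changed from tissue to tissue.

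Fitted over the 50 arrays, 93269_at exceeded B6 by 1.38 in 129, 1.43 in DBA, 1.54 in C3H and 2.26 in AJ, each ± 0.12 (limma adjusted p from 1.42e-17 to 3.71e-11). These were 2.61-fold, 2.70-fold, 2.91-fold and 4.78-fold. On 93268_at the differences were 0.84, 0.88, 1.13 and 1.67, each ± 0.13, all called. The shares of all probe sets called higher than B6 were 1.28% in 129, 0.841% in DBA, 0.572% in C3H and 1.85% in AJ. Over the 5 strains the F test passed for all 3 member probe sets (adjusted p at most 1.23e-08), as for 13.5% of all. Without the 6 arrays that fitted another strain, 93269_at differed from B6 by 1.62 in C3H and 1.39 in DBA, and 93268_at by 1.19 and 0.87, all called.

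AJ also stood above the other 3 strains that exceeded B6. On 93269_at AJ was higher than 129 by 0.88, than C3H by 0.72 and than DBA by 0.82, each ± 0.12 (limma adjusted p = 2.99e-06, 0.000208 and 1.47e-05). The shares of probe sets called higher in AJ were 1.40%, 0.314% and 0.706%. Without the array labelled C3H white adipose tissue the difference from C3H was 0.58 (limma adjusted p = 0.000135), just under 1.5-fold and so not called. Without the 6 arrays that fitted another strain, this array among them, it was 0.64 and called. On 93268_at AJ exceeded 129 by 0.83 and DBA by 0.79, both called, and exceeded C3H by 0.54 ± 0.13 (adjusted p = 0.0265), under 1.5-fold. That last difference passed without AJ brown adipose tissue (0.62) or the array labelled C3H liver (0.61), and was 0.48 (adjusted p = 0.1) without the 6 arrays. Without them AJ exceeded DBA by 0.87 on 93269_at and by 0.79 on 93268_at, both called.

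The strains 129, DBA and C3H were not told apart for Glo1. C3H differed from 129 by 0.16 ± 0.12, DBA from 129 by 0.05 ± 0.12 and C3H from DBA by 0.11 ± 0.12 on 93269_at (limma adjusted p = 0.642, 0.914 and 0.956). Other probe sets were called in 1.49% of cases between C3H and 129 and in 1.70% between DBA and 129. Between C3H and DBA limma called 0 of 8921 probe sets, or 0%, with 543 at an unadjusted p under 0.05. Without the 6 arrays it called 83, and C3H differed from DBA by 0.23 ± 0.11 on 93269_at and by 0.32 ± 0.14 on 93268_at (adjusted p = 0.76 and 0.66). On the same probe sets C3H then differed from 129 by 0.24 and 0.35 (adjusted p = 0.394 and 0.272), and DBA from 129 by 0.0090 and 0.04 (adjusted p = 0.987 and 0.953).

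**Figure D3:**
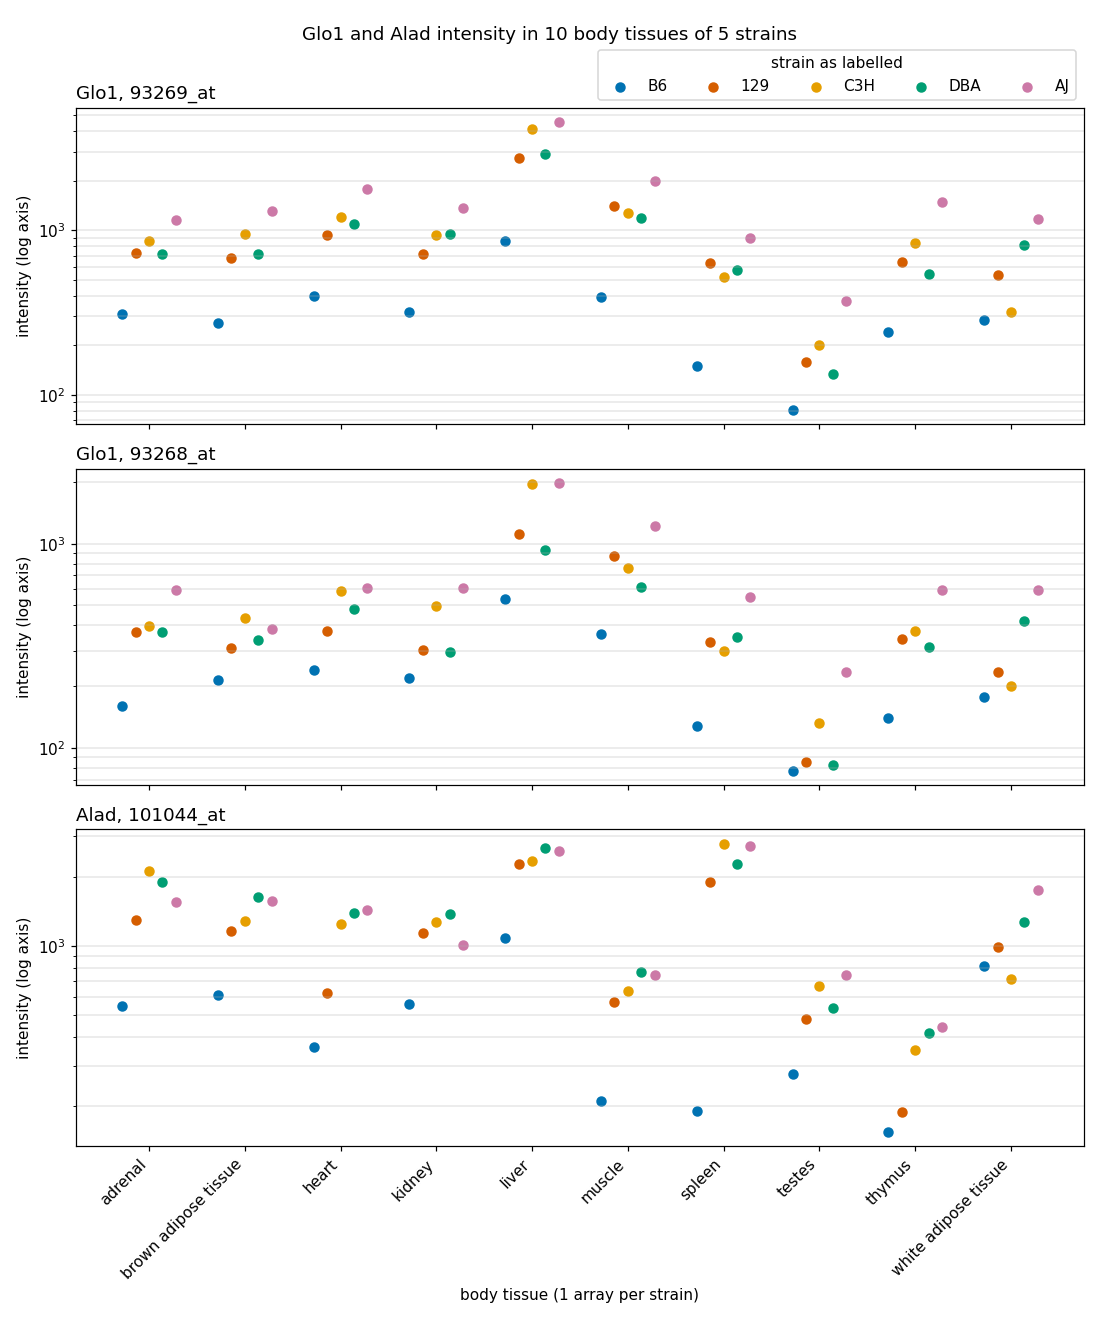
Intensity (log axis) of the 3 probe sets on the 50 body arrays, 1 array per strain and tissue, coloured by the labelled strain. B6 is lowest in 10 of 10 tissues on both Glo1 probe sets, and for Alad in all but white adipose tissue.

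Alad in body tissues had B6 lowest but no single highest strain. In liver it had 1086 in B6, 2283 in 129, 2352 in C3H, 2587 in AJ and 2667 in DBA, the C3H and DBA values being those of the labels. In heart it had 363 in B6, 621 in 129, 1241 in C3H, 1392 in DBA and 1435 in AJ. In kidney it had 560.3 in B6, 1006 in AJ, 1139 in 129, 1266 in C3H and 1369 in DBA, so AJ, highest in heart, was here the nearest to B6. White adipose tissue was the exception to the B6 order, with 713 on the array labelled C3H, 814 in B6, 985 in 129, 1266 in DBA and 1747 in AJ.

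Alad exceeded B6 by 1.11 in 129, 1.48 in C3H, 1.62 in DBA and 1.67 in AJ, each ± 0.19 (limma adjusted p = 0.000103, 8.24e-07, 8.03e-08 and 5.01e-08). These were 2.16-fold, 2.79-fold, 3.08-fold and 3.17-fold. AJ and DBA lay above 129 by 0.55 and 0.51, each ± 0.19, which did not pass (adjusted p = 0.0823 and 0.184). Without the 6 arrays that fitted another strain, Alad differed from B6 by 1.585 in C3H and 1.58 in DBA, both called, and from 129 by 0.47 in both (adjusted p = 0.377 in C3H and 0.264 in DBA). No AJ, C3H or DBA title carries a tag that most B6 body titles carry. Where the B6 title carries it, tag and strain cannot be told apart for AJ, C3H and DBA. The 3 body tissues whose B6 title lacks the tag are adrenal, spleen and white adipose tissue. They include spleen, which had the largest Alad ratios, and some of the arrays that fitted another strain. With only these 3 tissues, Alad differed from B6 by 2.14 in AJ, 2.01 in DBA and 1.875 in C3H. Alad lost its calls there, with limma adjusted p from 0.199 to 0.713. Glo1 lost those of C3H and DBA there and kept those of AJ, at 2.16 and 1.91.

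Spleen had the largest Alad ratios. The B6 array had 191, against 1893 in 129, 2280.1 on the array labelled DBA, 2711 in AJ and 2781 on that labelled C3H, which is 9.902 to 14.55 times the B6 value. The medians of the same ratios over 10 tissues were 1.97 in 129, 2.34 in C3H, 2.68 in DBA and 2.765 in AJ. Of the 9 red cell genes on the array, 8 were also lowest in the B6 spleen. The share of all probe sets lowest on that single array is not given here, so the count has no background. Its r with the B6 profile in the label check was 0.308, the lowest of the B6 body arrays. The erythroid transcription factor gene Klf1 had 147 there and 892 to 1677 in the other strains, and Gata1 had 24.4 against 169 to 314. The anion exchanger gene Slc4a1 had 489.6 against 2449 to 3019, and Alas2, the erythroid first enzyme of heme synthesis, 1835 against 3302 to 4308. Hba-a1 had 9705 against 8827 to 11023 and did not follow. No red cell gene was at the floor in B6 spleen.

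The summed intensity of the red cell genes was 15931 in B6 spleen and 24741 to 30413 in the others, and without globins 2730.4 against 8150.1 to 11892. Without spleen, Alad still exceeded B6 by 0.87 in 129, 1.22 in C3H, 1.40 in DBA and 1.43 in AJ, all called. Over the 10 tissues none of the 9 red cell genes was called between any strain and B6 by limma, with 1 of them in 129 and none in AJ, C3H or DBA at an unadjusted p under 0.05. The part of red cell precursors in the spleen ratio was not tested.

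**Figure D4:**
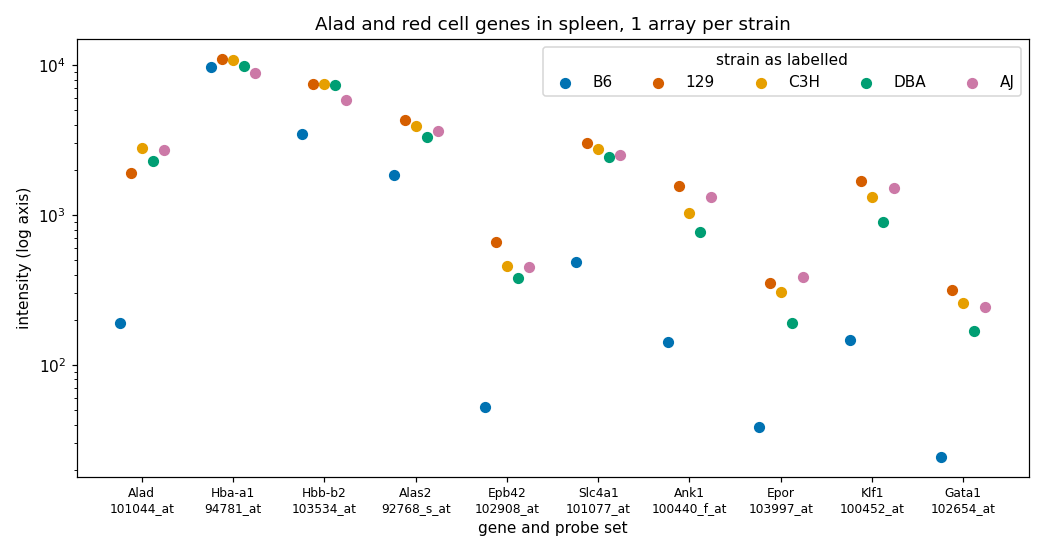
Intensity (log axis) of Alad and of 9 red cell genes in spleen, 1 array per labelled strain. B6 lies lowest for Alad, at 191, and for 8 of the 9 red cell genes. The share of all probe sets lowest on the B6 array is not given.

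The size of the strain difference was compared between body and neural tissue. For 129 against B6, Glo1 on 93269_at differed by 0.31 ± 0.09 more in body tissue (limma adjusted p = 0.00639), where 16.6% of probe sets passed this test. Under quantile normalization the gap was 0.17 (adjusted p = 0.165) and the call was lost. On 93268_at it was -0.07 ± 0.10 and for Alad 0.21 ± 0.13 (adjusted p = 0.665 and 0.259), and the Alad value was -0.03 without the 129 or the B6 spleen array. For DBA against B6, body against forebrain, the gaps were 0.36 ± 0.16 and 0.18 ± 0.19 on the Glo1 probe sets 93269_at and 93268_at and 0.16 ± 0.26 for Alad (adjusted p = 0.301, 0.694 and 0.817), where 0.308% of probe sets passed.

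Across tissues Glo1 was highest in liver and lowest in testes. A tissue was called at an adjusted p under 0.05 and a log2 difference of 1 from the mean of the others. The strain-adjusted level on 93269_at was 11.37 in liver and 7.38 in testes on the log2 scale, the gap to the next tissue being larger than the residual SD of 0.213 for both. Liver exceeded the other 9 body tissues by 2.12 ± 0.13 (limma adjusted p = 2.05e-18) and testes differed by -2.31 ± 0.13 (6.16e-20). On 93268_at liver was higher by 1.85 ± 0.14, muscle by 1.05 ± 0.14 and testes differed by -1.92 ± 0.14. The muscle call was lost without 129 muscle (0.95) and under quantile normalization (0.99). The shares called were 13.2% higher in liver, 12.9% higher in muscle and 25.1% lower in testes. Kidney, brown adipose tissue, adrenal and thymus followed heart on 93269_at, and neighbours among these 4 differed by less than the residual SD.

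Among neural tissues choroid plexus and retina had the highest Glo1 levels on 93269_at. Choroid plexus stood at 11.08 and retina at 10.99, within the residual SD of each other, and both above spinal cord at 10.48. Choroid plexus exceeded the other neural tissues by 1.00 ± 0.08 (limma adjusted p = 2.06e-20), which is at the threshold. The call was lost under quantile normalization (0.78). It was also lost without any of 11 arrays, at 0.94 to 0.9998: B6 choroid plexus replicates 1 and 2, B6 motor cortex replicate 2, 129 choroid plexus, CA1, CA3, dentate gyrus, entorhinal cortex and perirhinal cortex replicate 2, and 129 hypothalamus and superior colliculi replicate 1. Retina exceeded the others by 0.88 ± 0.08 on 93269_at and by 1.14 ± 0.10 on 93268_at, where it was called. On 93268_at the bed nucleus of the stria terminalis was higher by 0.67 ± 0.09 and choroid plexus by 0.47 ± 0.09, both under the threshold. The 4 B6 arrays of retina had 836 to 962 and 468 to 539 on these probe sets, and as retina holds B6 alone its strain-adjusted level uses the strain differences of the other tissues. Pituitary, at 9.48, was the lowest on 93269_at, and entorhinal cortex, at 8.19, on 93268_at. The shares called higher were 15.1% in choroid plexus and 14.5% in retina.

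Alad had another distribution over tissues. Liver at 11.03, spleen at 10.49 and adrenal at 10.39 were the highest body tissues and thymus at 8.16 the lowest, and spleen and adrenal differed by less than the residual SD of 0.288. The place of spleen differed by strain: in B6 it was the lowest but for thymus at 155, and in AJ and on the arrays labelled C3H it was the highest of 10 body tissues. Liver exceeded the other body tissues by 1.35 ± 0.20 (limma adjusted p = 1.41e-07), but by 0.78 under quantile normalization, below the threshold. Thymus differed by -1.85 ± 0.20 (adjusted p = 8.83e-11), where 15.9% of probe sets were called lower. In the nervous system choroid plexus stood apart at 9.39, higher than the others by 1.11 ± 0.08 (adjusted p = 6.00e-22), followed by cerebellum at 8.79. The remaining 22 neural tissues lay between 8.02 in retina and 8.56 in periaqueductal grey, each within the residual SD of the next.

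Neural and body tissues differed for Alad. Its mean over 24 neural tissues was -1.49 ± 0.19 relative to 10 body tissues (limma adjusted p = 4.97e-08), where 13.6% of probe sets were called lower and 14.1% higher. Glo1 differed by 0.66 ± 0.23 on 93269_at and 0.27 ± 0.21 on 93268_at, neither at a log2 difference of 1.

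The genes whose pattern was most like the members were found by Pearson correlation. Over the 50 body arrays with tissue means removed, Glo1 on 93269_at was most like Alad (r = 0.836), Cap1 (0.820) and Gnb1 (0.814) among 8764 probe sets. Alad was most like the Glo1 probe sets (0.836 and 0.765) and Cul4a (0.742). These points share arrays, strains and, through 6 arrays, uncertain labels. Over the 34 tissue means the likeness was to other genes, Usp10 (0.792), Npc1 (0.786) and Vtn (0.773) for Glo1, and Nr1h3 (0.930), Smagp (0.911) and Dhrs4 (0.896) for Alad. Glo1 and Alad had r of -0.11 there, while the Glo1 probe sets had r of 0.887 with each other, and 0.943 over the body arrays.

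The measured genes next to Glo1 and Alad were read in the strain contrasts. Of the 24 protein-coding genes nearest to them in RefSeq's order (6 on either side of each), 10 had a probe set, 13 in all, and 11 probe sets were tested. Btbd9 and Hdhd3, the direct neighbours on the other side, and Glp1r were not analysed here. Over 7 strain contrasts limma called 0 of 65 values, against 3.24% of the values of all probe sets in these contrasts, with 12 at an unadjusted p under 0.05, and the differences ran from -0.67 to 0.75. Dnah8, a dynein heavy chain gene next to Glo1, gave the smallest adjusted p, 0.0621, on 95299_at, where AJ differed from B6 by 0.75 ± 0.28. Its other probe set, 161398_at, gave -0.18 ± 0.26. Pole3, a DNA polymerase subunit gene next to Alad, differed from B6 by 0.35 ± 0.17 in AJ on 100408_at and by -0.14 ± 0.11 on 160743_at.

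**Figure D5:**
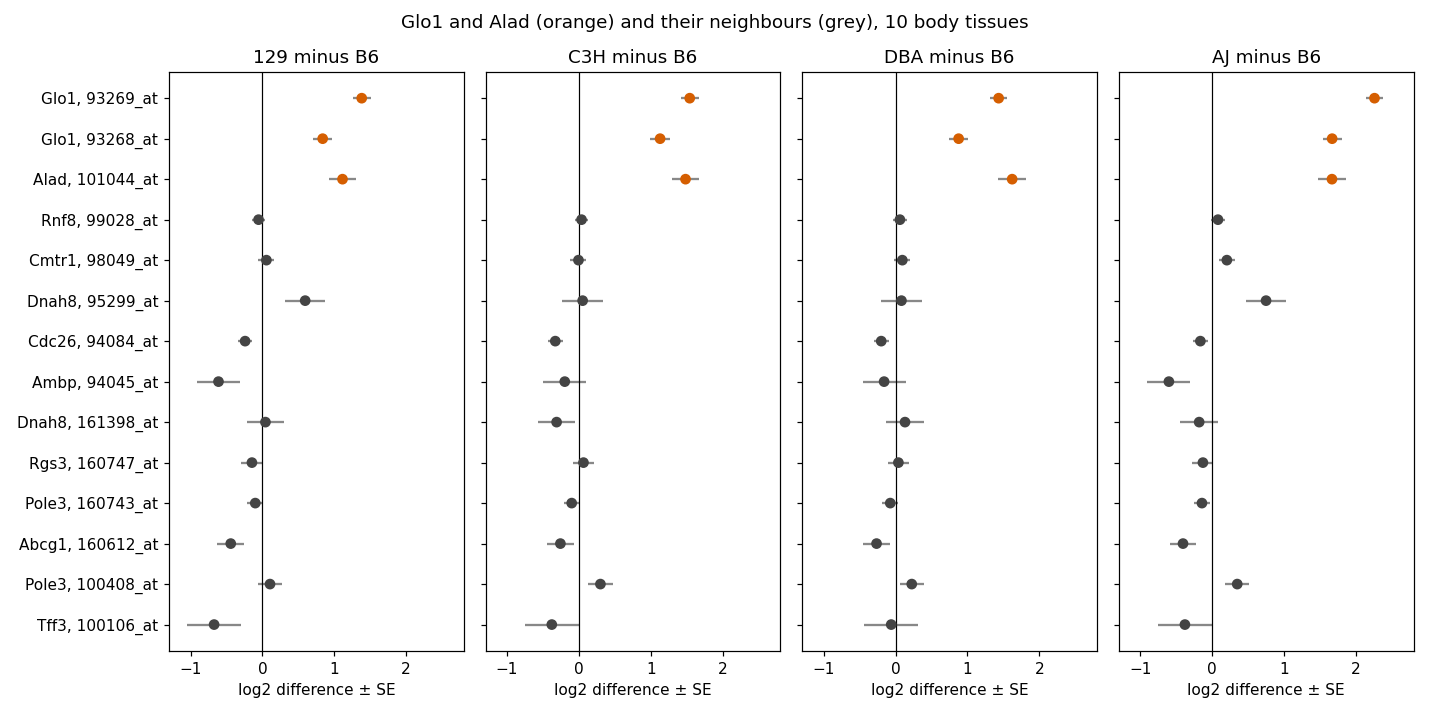
Log2 difference from B6 with its SE over 10 body tissues, for Glo1 and Alad (orange) and the tested probe sets of their neighbours (grey), 1 panel per strain. The members lie at 0.84 to 2.26 and the neighbours between -0.67 and 0.75.

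The other genes of both pathways, and genes listed with them, were read in the same strain comparisons. A list of 16 glyoxalase, glutathione and related genes included Ager and Aldh9a1, and 14 of the 16 were on the array and tested. Between 129 and B6 in neural tissue limma called none of the 14, with 4 at an unadjusted p under 0.05. Their median was -0.02 against 0.02 for all probe sets. Hagh, the second glyoxalase, differed there by -0.32 ± 0.03 (limma adjusted p = 3.07e-13), under 1.5-fold. This was the lowest value of the 14, and the highest was 0.49. In body tissues 1 of the 14 fell in AJ and in C3H and 2 fell in DBA, where 5.96%, 1.11% and 1.08% of all probe sets were called lower, so that the count in AJ was near the share of all probe sets. None was called in 129 by limma, where 2 had an unadjusted p under 0.05. The only genes called were Ager and Aldh9a1, and neither encodes a glyoxalase or a glutathione enzyme. Ager, the receptor for glycated proteins, fell by -0.93 ± 0.18 in AJ, -0.84 ± 0.18 in C3H and -0.68 ± 0.18 in DBA (adjusted p = 0.00057, 0.00463 and 0.0274). Aldh9a1, an aldehyde dehydrogenase, fell in DBA by -1.75 ± 0.29 (9.02e-05). With only the 3 body tissues whose B6 title lacks the tag it differed by -0.93 (adjusted p = 0.752) and was not called. The DBA call of Ager was lost without B6 kidney, liver or thymus or without DBA adrenal, kidney or spleen, at -0.59 to -0.64, and under quantile normalization (-0.56). Without the 6 arrays that fitted another strain Ager differed by -0.74 in C3H and -0.55 in DBA, and both calls were lost (adjusted p = 0.0572 and 0.15). With all arrays in 1 fit the differences were -0.60 in C3H and -0.29 in DBA, neither called (adjusted p = 0.0555 and 0.297).

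Of 8 other heme synthesis genes listed, 7 were on the array, and 1 was called in AJ, where 1.85% of all probe sets were called higher. Urod, the fifth enzyme, rose in AJ by 0.60 ± 0.18 (limma adjusted p = 0.0177), which was 0.37 without the B6 spleen array and 0.56 to 0.58 without AJ adrenal, heart, kidney or spleen, all under 1.5-fold, and 0.37 with all arrays in 1 fit. None was called in 129, C3H or DBA body tissue, with 1 in each at an unadjusted p under 0.05, or in 129 neural tissue, with 3 of 6. Alas1, the first enzyme outside red cells, differed by 0.03 ± 0.04 in 129 neural tissue and by -0.16 to -0.0049 in the 4 body comparisons. Of 3 heme breakdown genes none was called in these comparisons, with at most 1 at an unadjusted p under 0.05 in any of them.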

How the data were processed

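The values are 1-colour probe-set intensities as deposited, near a common scale, with 5.97% below 0. The software that made them is not named here. Of 12488 probe sets 66 controls were left out, and 10833 had 1 gene symbol, 396 several and 1193 none. Intensities were raised to a floor of 10.44, their 20th percentile, and taken to log2. Probe sets were kept whose strain-adjusted mean exceeded 5.73, the median log2 value, in at least 1 tissue of a fit. Models of tissue and strain were fitted with limma 3.58.1 (R 4.3.3; lmFit, eBayes with a trend), with Benjamini-Hochberg adjustment over all probe sets tested, and were checked on simulated data.

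Every member probe set was named, as were pathway genes and neighbours that were called and the 3 patterns most like a member. Direct neighbours are also named, chosen after their values were seen. Hagh and Alas1 are named too, though neither was called in a strain comparison. The members and lists were chosen with earlier results of these data known. Each list gene is represented by its brightest probe set. Counts at an unadjusted p under 0.05 have no share of all probe sets beside them, except between C3H and DBA. The number of arrays limits precision, and since the labels do not say that arrays are separate animals, p-values measure the spread between arrays. Body tissues had 1 array per strain, so tissues stood in for replicates. The title codes, read as animals or pools, numbered 59 for the 80 neural arrays, 35 for the 50 body arrays and 15 for the 23 forebrain arrays, and were tried as a random block (consensus correlation 0.15, 0.0475 and 0.355). Alternatives covered scaling, floor, filter, prior variance, arrays in the fit and arrays left out.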

Additional observations from a re-analysis of the deposited data

Results flagged for a closer look

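Glo1 on 93269_at differed more between 129 and B6 in body tissue than in neural tissue, by 0.31 ± 0.09 on the log2 scale (limma interaction, adjusted p = 0.00639). Such interactions were tested on every member probe set, and this result was picked out because it alone passed. The strain difference was 1.38 in body and 1.07 in neural tissue. Under quantile normalization the gap was 0.17 (adjusted p = 0.165), and on the other Glo1 probe set, 93268_at, it was -0.07 (adjusted p = 0.665). The cause was not tested.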

How the results depend on the processing

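All values are log2 differences unless called F, and the cause of each change was not tested. Every called difference of a member from B6 kept its call in neural, forebrain and body tissue under every alternative run, except with only the 3 body tissues whose B6 title lacks the tag. There Alad differed by 2.14 in AJ, 1.875 in C3H and 2.01 in DBA, 93268_at by 0.90 in C3H and 1.30 in DBA, and 93269_at by 1.13 and 1.55, none called. Quantile normalization gave 0.17 for the body against neural gap of 93269_at, F of 2.74 for 93268_at by tissue, and 0.60 for Alad in DBA against 129 forebrain. That last value was 0.605 with the identical columns kept and 0.62 with the replicate block of arrays that share a title code, which changed no other member call. With all arrays in 1 fit, Alad differed by 0.63 between AJ and 129 and became called, and 93268_at differed by -0.050 between DBA and 129. After the data were seen, white adipose tissue was left out, giving -0.0021 for Alad in AJ against DBA, and -0.048 and -0.0095 for 93268_at and 93269_at in DBA against 129. Without the 6 arrays that fitted another strain, Alad differed by 0.0048 between C3H and DBA.

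With 1 array left out, Alad ran from -0.029 to 0.31 for body against neural, -0.014 to 0.12 for AJ against DBA, 0.51 to 0.63 for DBA against 129 in forebrain, and -0.066 to 0.27 for DBA body against forebrain. On 93268_at F by tissue ran from 1.80 to 2.72, where an array left out often took its whole tissue out of the test. The differences on 93268_at ran from -0.13 to 0.0018 for body against neural and 0.43 to 0.62 for AJ against C3H. For DBA against 129 they ran from -0.038 to 0.095 in body and -0.14 to 0.0086 in forebrain. On 93269_at they ran from 0.58 to 0.78 for AJ against C3H and from -0.016 to 0.11 for DBA against 129.

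Counts of all probe sets called moved by over 1.5 times as follows. With 1 probe set per gene, where fewer features are tested, the body calls against B6 went from 319 to 207 in 129, 697 to 412 in AJ, 150 to 87 in C3H and 171 to 111 in DBA. Those against 129 went from 267 to 168 in AJ, 133 to 85 in C3H and 152 to 101 in DBA, those of AJ against C3H from 67 to 41 and against DBA from 139 to 92. Neural calls went from 197 to 123, and forebrain calls of DBA from 189 to 122 against B6 and 149 to 97 against 129. With all arrays in 1 fit they were 187 for 129 against B6, 572, 247 and 482 for AJ against 129, C3H and DBA, and 204 for C3H against 129. AJ against B6 gave 440 with a floor at the 40th percentile. In the 3 tissues AJ gave 6 calls against B6, and C3H and DBA 0. C3H against B6 gave 96 without B6 liver. C3H against DBA gave 0, but 59 with all arrays in 1 fit, 83 without the 6 arrays, 11 without spleen, and 1, 2, 1 and 6 without C3H brown adipose tissue, C3H spleen, DBA liver and DBA spleen. A fit to B6 body arrays alone was not run, as it has no residual degrees of freedom.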
